A study of Arabidopsis thaliana with 27 samples.

Results

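In the epidermis of Arabidopsis thaliana roots, the libraries that carry replicate number 3 were compared with those that carry replicate number 1. The members were chosen by their titles and cell type alone, which gave 6 of the 27 libraries of the series, 3 with each number. Within each number, 1 library was labelled mock, 1 flg22 and 1 Pep1, so that the comparison pairs libraries of the same label across numbers. The 3 epidermis libraries numbered 2 entered the same fit and are given where they place the other numbers. All plants were Col-0 that carried green fluorescent protein (GFP) under the GL2 promoter, which is active in the non-hair cells of the epidermis, and GFP-positive protoplasts were collected by fluorescence-activated cell sorting (FACS). The mock groups received water, the flg22 groups a peptide of bacterial flagellin and the Pep1 groups a peptide of the plant's own damage signal. The sample labels give 1 mM elicitor, an incubation of 1 h and plants of 10 d, while the series text gives 1 µM and sampling at 2 h. The study describes its repeats as independent experiments, each on pooled roots of many seedlings. What else differed between numbers 1 and 3 is not stated in the labels. The replicate number may carry the real treatment, and this was not tested: the number, the experiment it stands for and whatever was applied in that experiment cannot be told apart here.

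Pattern-triggered immunity is the response of plant cells to molecules that signal a microbe or damage. Receptor kinases at the cell surface such as FLS2, the receptor of flg22, and PEPR1 and PEPR2, the receptors of Pep1, pass the signal through cytoplasmic kinases, calcium influx and MAP kinases. An oxidative burst from the NADPH oxidase RBOHD, activation of WRKY transcription factors and synthesis of indole glucosinolates and other antimicrobial compounds follow. In roots the epidermis is the outermost layer and meets soil microbes first, and it also takes up water and nutrients.

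The epidermis libraries held 6454068 to 17188823 gene counts (median 9871153), and 4307884 to 12278051 after organelle, rRNA and ribosomal protein genes were left out. Numbers 1 and 3 overlapped in depth, with 8130364 to 17188823 and 9871153 to 14731758 gene counts. Mitochondrial transcripts took 24.2 to 31.3% of gene counts in number 1 and 24.0 to 29.4% in number 3, and ribosomal protein genes 0.717 to 3.84% and 1.34 to 3.78%. The library names of the epidermis carry 1 of 2 numbers, whose meaning the labels do not give. The first library-name number held the mock libraries numbered 1 and 2 and all flg22 libraries, and the second held the mock library numbered 3 and all Pep1 libraries, so that only the mock pair differed in it. Among the 9 libraries, the first principal component held 42.1% of the variance and split 36.7% by replicate number, 25.55% by label and 62.1% by library-name number. The second held 29.0% and split 80.9% by replicate number, 8.44% by label and 2.35% by library-name number. On the second component the libraries numbered 1 lay at 24.7 to 79.96 and those numbered 3 at -55.4 to -15.7, with no overlap. Those numbered 2 lay at -38.9 to 2.16 and overlapped number 3. No 2 of the 9 libraries agreed within sampling noise, since the chi-square per degree of freedom over genes was at least 6.83 in all 36 pairs.

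**Figure D1:**
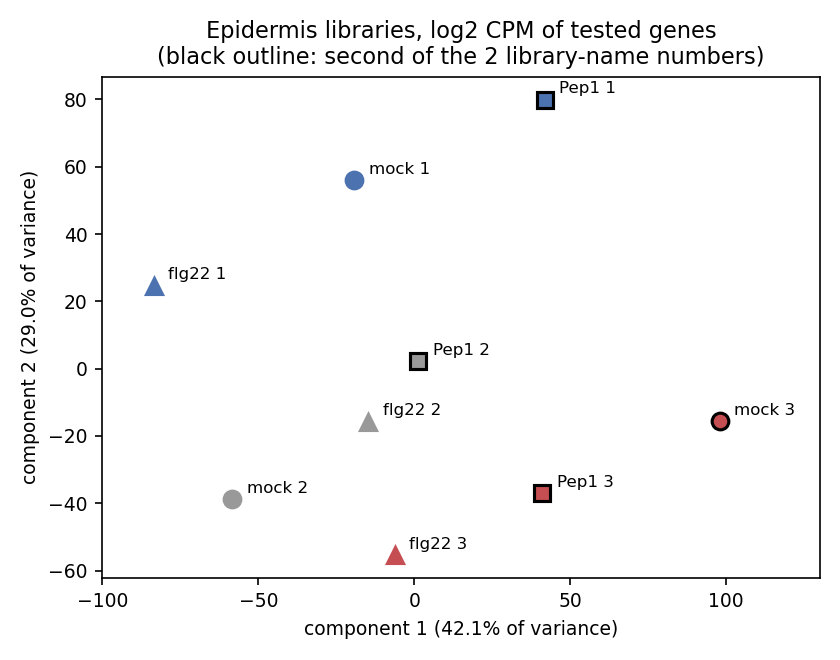
The 9 epidermis libraries on the first and second principal component of log2 CPM, in arbitrary units of the components. Colour gives the replicate number, shape the treatment label and a black outline the second library-name number. The libraries numbered 1 lie above those numbered 3 on the second component, at 24.7 to 79.96 against -55.4 to -15.7. Those numbered 2 lie at -38.9 to 2.16, in part among those numbered 3.

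Of 16009 genes tested, 589 were higher and 275 lower in the libraries numbered 3 than in those numbered 1, at an adjusted p under 0.05 in edgeR's quasi-likelihood test in a model that also held the treatment label. This is 5.4% of the genes in either direction, 3.68% higher and 1.72% lower. All 864 had the same direction in the mock, the flg22 and the Pep1 pair. They were called by this same contrast of the same pairs, so that this agreement and the separation given next are a description. Between the numbers the levels did not overlap in any of the 589 higher genes nor in 274 of the 275 lower genes, while among all genes tested 24.6% did not overlap. The median log2 fold change was 2.23 among the higher genes, -1.95 among the lower genes and 0.03 among all genes tested. More than 8-fold higher were 170 genes, 50 of them more than 32-fold, and 39 were more than 8-fold lower. At an unadjusted p under 0.05 there were 3203 genes.

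The number of calls depended on single libraries. It was 172 without the mock library numbered 1, 288 without the flg22 library numbered 3, 405 without the flg22 library numbered 1, 487 without the Pep1 library numbered 3 and 507 without the Pep1 library numbered 2. In all 9 fits that left out 1 library, 158 genes were called each time, 142 higher and 16 lower. Among them were RBOHD, PP2C5, CYP81F2, IGMT1 to IGMT4, GSTF6, WRKY15, AT1G05675, CER4 and YUC3. Within the labels flg22 and Pep1, whose libraries each share 1 library-name number, 314 genes were higher and 52 lower, and 342 of the 864 genes were among them.

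Values per library are given in CPM, the counts of a gene relative to the total of the retained genes, scaled by TMM (trimmed mean of M values), in the order mock, flg22 and Pep1. The genes with the largest rises and falls, 12 each, are those whose log2 CPM averaged 2 or more over the 9 libraries. The rises were chosen and ranked by this same contrast, so that their size is a description. CYP706A1, a cytochrome P450, stood at 0, 0.624 and 0.849 CPM in number 1 and 244, 164 and 198 CPM in number 3. The nearby CYP706A2 stood at 0.422, 2.495 and 2.09 CPM and 219.7, 135 and 195 CPM. For both genes every library of number 3 lay far above the highest of number 1. The log2 fold changes were 8.51 ± 0.77 (SE) and 6.75 ± 0.68, with adjusted p of 0.00126 and 0.00214 in edgeR. Of the 100-base stretches in their exons, only 60.1% and 47.9% are unique in the genome, so that reads from their other stretches may be missing or misplaced.

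AT1G05675, of the UDP-glycosyltransferase family, had 0.317, 0.208 and 0 CPM in number 1 and 45.8, 42.5 and 36.95 CPM in number 3. The libraries numbered 2 fell between them, at 17.9, 17.6 and 10.1 CPM. AT3G16530, a legume lectin family gene, had 0, 1 and 1 counts in number 1 and 467, 416 and 529 in number 3, a ratio of 825 at equal depth with an exact 95% interval of 228 to 6820 that covers counting error only. B120, a lectin receptor kinase, had 0.9499, 0.624 and 0.327 CPM in number 1 and 74.8, 26.4 and 47.3 CPM in number 3. In B120 the mock library numbered 3 was the highest of all 9 and the flg22 library numbered 3 the lowest of its number. BGLU27, a beta-glucosidase, had 0.105, 0.416 and 1.11 CPM against 67.1, 33.7 and 61.04 CPM, and CCOAMT, annotated as a caffeoyl-CoA methyltransferase, 7.71, 4.99 and 2.22 CPM against 451, 273 and 445 CPM. GSTU12, a glutathione transferase of the tau class, had 3.06, 3.74 and 12.2 CPM in number 1 and 646, 435 and 535 CPM in number 3. AT1G26380, of the FAD-binding berberine family, had 0, 0 and 1.63 CPM against 43.7, 33.5 and 54 CPM, and AT1G27020 had 0.528, 2.91 and 0 CPM against 23.5, 63.4 and 46.6 CPM. In AT1G26380 the Pep1 library numbered 1 held all 25 counts of its number.

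**Figure D2:**
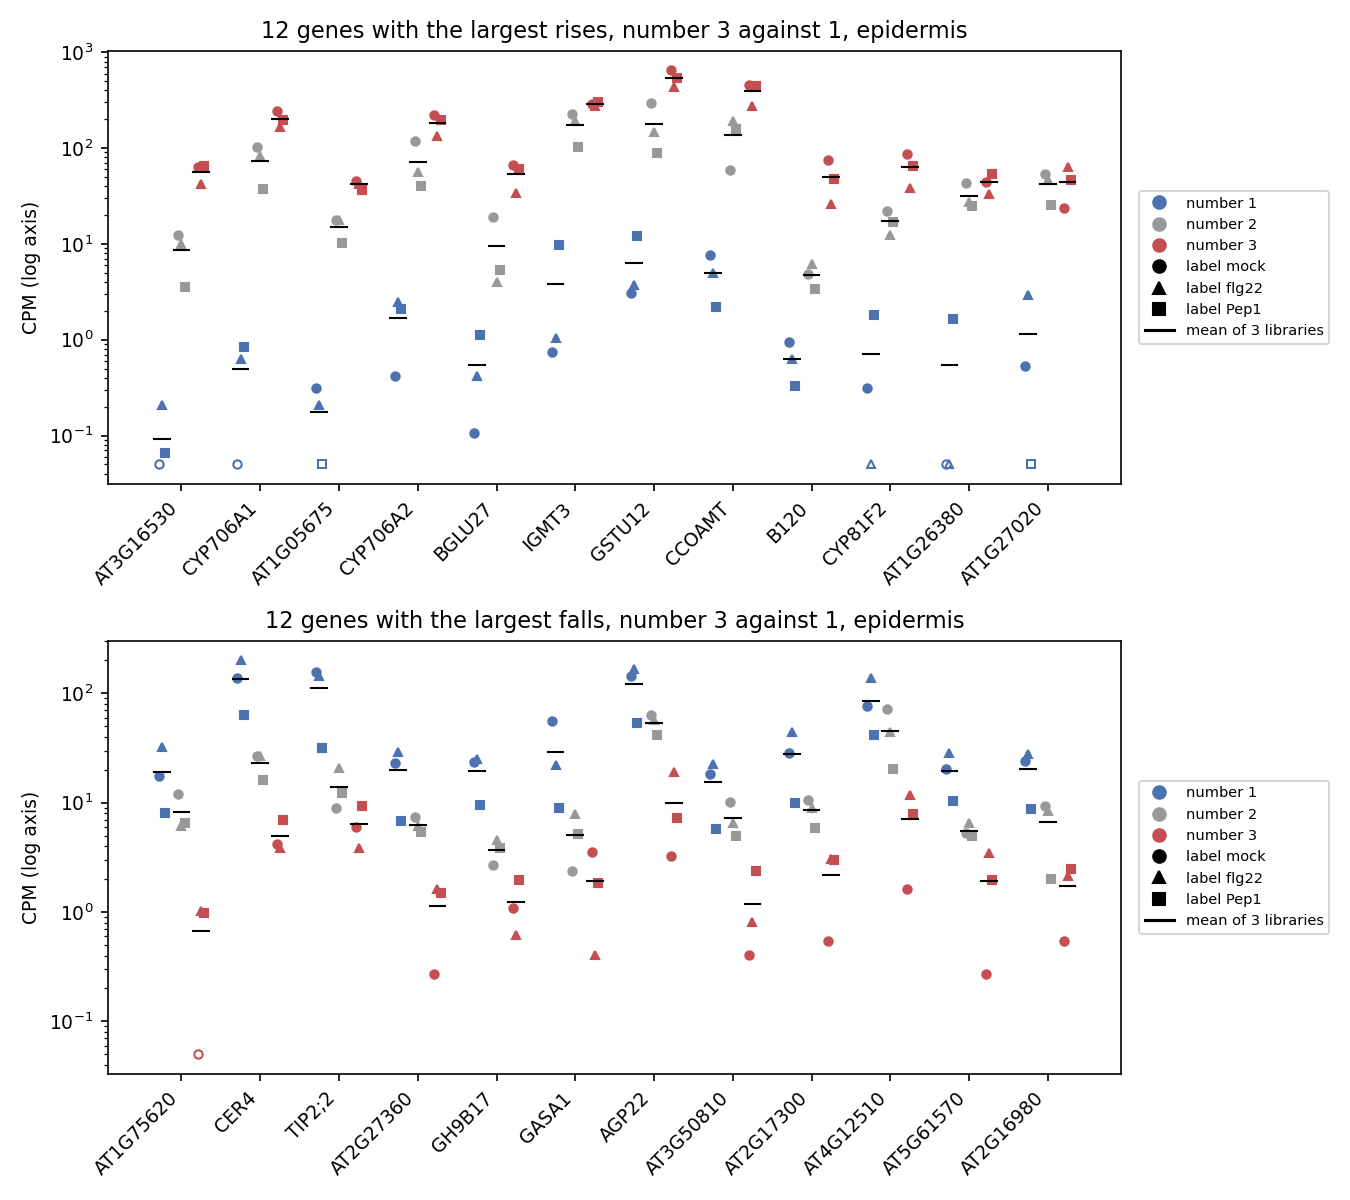
CPM (log axis) of the 12 genes with the largest rises (upper panel) and the 12 with the largest falls (lower panel) in each of the 9 epidermis libraries. Colour gives the replicate number, shape the label, a bar the mean of 3 libraries, and an open symbol at 0.05 CPM a library below that level. In every gene shown, all 3 libraries numbered 3 lie on 1 side of all 3 numbered 1. The genes were chosen by this contrast and by the same direction in all 3 label pairs.

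The promoters of these genes are shown because 1 short motif was common in them. WRKY transcription factors bind the W-box, here searched as TTGACC or TTGACT on both strands, in a window of 300 bases from 250 before to 50 after the annotated start of each gene. All 12 of the largest rises held at least 1 W-box and 5 held 2 or more, whereas 4 of the 12 largest falls held 1 and none held 2. The 250 bases before the start of those 5 genes, from the RefSeq annotation of TAIR10.1 and read 5′ to 3′ along the gene's strand, follow with each W-box in capitals. AT1G05675 lies on the minus strand at chr1:1702750-1702999, GSTU12 on the minus strand at chr1:26335631-26335880, CYP81F2 on the plus strand at chr5:23187590-23187839, AT1G26380 on the minus strand at chr1:9128569-9128818 and AT1G27020 on the plus strand at chr1:9378154-9378403. RBOHD, on the plus strand at chr5:19396791-19397040, is added for its place in the oxidative burst, and CER4, on the minus strand at chr4:16207957-16208206, as a gene that fell and holds none.
AT1G05675: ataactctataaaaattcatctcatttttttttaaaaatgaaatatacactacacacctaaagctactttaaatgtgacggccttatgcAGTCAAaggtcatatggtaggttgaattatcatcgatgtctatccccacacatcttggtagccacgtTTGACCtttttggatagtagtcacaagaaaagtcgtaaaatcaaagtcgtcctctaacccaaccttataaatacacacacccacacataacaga
GSTU12: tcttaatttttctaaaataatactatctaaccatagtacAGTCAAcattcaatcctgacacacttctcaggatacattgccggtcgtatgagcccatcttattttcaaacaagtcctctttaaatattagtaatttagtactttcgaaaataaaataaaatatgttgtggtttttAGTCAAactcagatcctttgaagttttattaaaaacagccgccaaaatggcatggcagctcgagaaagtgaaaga
CYP81F2: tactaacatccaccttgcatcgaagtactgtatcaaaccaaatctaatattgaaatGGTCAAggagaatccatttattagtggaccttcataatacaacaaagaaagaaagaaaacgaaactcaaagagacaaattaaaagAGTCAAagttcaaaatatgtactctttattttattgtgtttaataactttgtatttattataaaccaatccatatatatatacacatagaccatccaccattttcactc
AT1G26380: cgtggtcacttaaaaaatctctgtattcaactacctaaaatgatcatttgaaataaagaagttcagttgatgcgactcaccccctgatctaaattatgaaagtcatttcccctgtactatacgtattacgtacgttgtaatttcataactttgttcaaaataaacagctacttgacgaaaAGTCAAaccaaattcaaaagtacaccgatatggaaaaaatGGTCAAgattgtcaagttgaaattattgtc
AT1G27020: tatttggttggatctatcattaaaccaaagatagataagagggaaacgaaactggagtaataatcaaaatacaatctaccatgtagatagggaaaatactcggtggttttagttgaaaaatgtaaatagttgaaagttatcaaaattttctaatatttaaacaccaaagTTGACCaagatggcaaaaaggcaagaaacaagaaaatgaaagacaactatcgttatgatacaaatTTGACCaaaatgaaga
RBOHD: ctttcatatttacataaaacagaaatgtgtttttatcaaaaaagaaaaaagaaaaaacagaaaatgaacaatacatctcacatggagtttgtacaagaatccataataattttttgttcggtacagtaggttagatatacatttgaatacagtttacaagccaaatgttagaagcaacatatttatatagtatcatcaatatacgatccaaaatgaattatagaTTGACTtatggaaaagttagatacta
CER4: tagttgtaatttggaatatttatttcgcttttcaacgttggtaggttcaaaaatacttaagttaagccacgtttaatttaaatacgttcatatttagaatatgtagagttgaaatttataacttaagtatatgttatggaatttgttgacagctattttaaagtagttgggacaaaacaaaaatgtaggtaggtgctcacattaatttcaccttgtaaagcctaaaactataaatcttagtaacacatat

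Over all genes, a W-box was found in 34.8% of the 15999 promoters of tested genes, in 60.4% of the 589 promoters of genes higher in number 3 and in 32.4% of the 275 of genes lower. Among the 170 genes more than 8-fold higher the share was 70.6%. At least 2 W-boxes were found in 8.45% of all promoters, in 25.6% of the higher and in 4.73% of the lower genes. The G-box CACGTG, bound by bZIP and bHLH factors, was found in 9.07% of all promoters and in 7.13% and 7.27% of those of the higher and lower genes. The GCC-box GCCGCC, bound by ERF factors, was found in 2.78%, 4.75% and 1.09%, and TGACG, bound by TGA factors, in 24.2%, 26.8% and 18.9%. Of these motifs the W-box had the widest gap between the higher genes and all genes. A match describes the letters of a window and not a site in use.

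**Figure D3:**
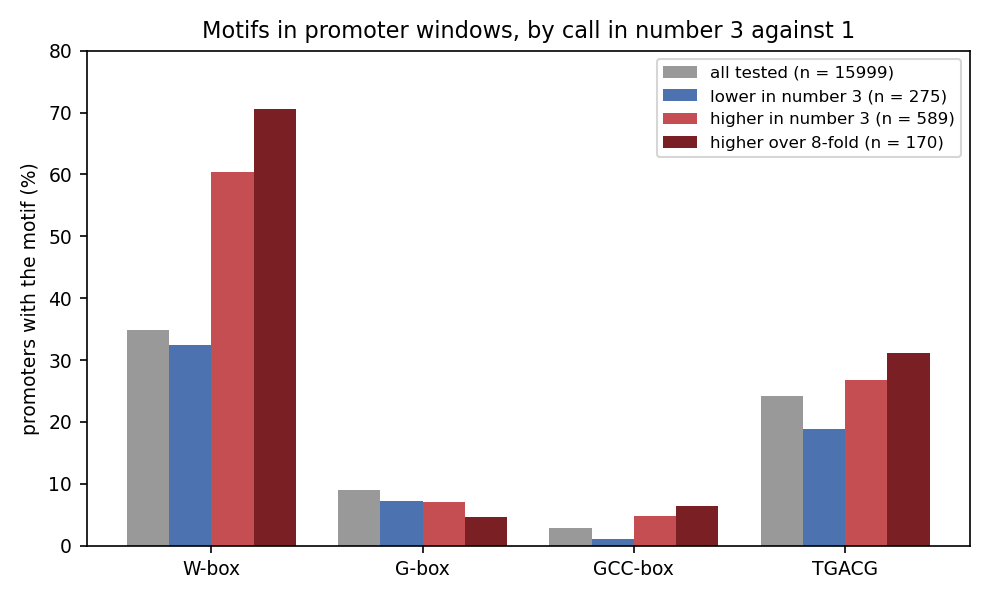
Share of promoters (%) that hold each of 4 motifs, among all tested genes, genes lower in number 3, genes higher in number 3 and genes more than 8-fold higher, with the number of promoters in the key. For the W-box the bars stand at 34.8, 32.4, 60.4 and 70.6%.

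Of the receptors and kinases that start pattern-triggered immunity, 3 of 14 tested members were higher and none lower, against 3.68% and 1.72% of all genes. The list's median log2 fold change was 0.88, against 0.03 over all genes. This and the other gene lists were drawn up with earlier results of these data known, so that such shares are a description. They cover only the members that passed the filter on low counts. The members that rose were LYK4, a LysM receptor kinase of chitin perception, and BIK1 and PBL1, the cytoplasmic kinases that link receptor complexes to RBOHD. BIK1 had 21.9, 29.1 and 12.3 CPM in number 1 and 45.6, 54.5 and 53.9 CPM in number 3, with no overlap (log2 fold change 1.35 ± 0.28, adjusted p = 0.0305, edgeR). LYK4 had 25.6, 47.6 and 18.1 CPM against 73.2, 102 and 103 CPM. FLS2 did not pass the test, with 23.01, 59.7 and 13 CPM in number 1 and 47.5, 97.4 and 83.3 CPM in number 3 (adjusted p = 0.135, edgeR). Its flg22 library numbered 1 lay above the mock library numbered 3, so that the groups overlapped. BAK1, the co-receptor of FLS2 and the PEPRs, had 334, 446 and 220 CPM against 558, 718 and 663 CPM and an adjusted p of 0.0783 in edgeR.

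RBOHD, the NADPH oxidase of the oxidative burst, stood at 4.22, 4.78 and 3.27 CPM in number 1, at 36.1, 35.3 and 24.7 CPM in number 2 and at 54.2, 68.5 and 62.1 CPM in number 3. The means were 4.09 ± 0.766 and 61.6 ± 7.12 CPM (SD, n = 3), and the log2 fold change was 3.93 ± 0.26 (adjusted p = 0.000557, edgeR). The 3 libraries of a number lay close together, and the 3 numbers did not overlap. The other NADPH oxidases tested did not pass: RBOHA, RBOHC and RBOHF had log2 fold changes of -0.46, -0.54 and 0.21 with standard errors of 0.40, 0.57 and 0.47.

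In the MAP kinase list, 4 of 14 members were higher and none lower, against 3.68% of all genes higher. MPK3, a kinase activated within minutes of pattern perception, had 178, 199.8 and 85.3 CPM in number 1 and 614, 599 and 572 CPM in number 3. MPK5 had 4.12, 6.03 and 6.66 CPM against 45.6, 48.1 and 45.8 CPM, and MPK11 had 6.65, 8.73 and 4.64 against 20.5, 19.8 and 16.8 CPM. PP2C5, a phosphatase that acts on MAP kinases, had 2.96, 3.95 and 3.201 CPM in number 1, 103, 96.96 and 108 CPM in number 2 and 65.2, 80.9 and 77.2 CPM in number 3. Of these kinases and phosphatase, PP2C5 changed the most (log2 fold change 4.47 ± 0.24, adjusted p = 0.000557, edgeR), and its libraries numbered 2 were above those numbered 3. In calcium signaling, 5 of 14 members were higher, against the same share. The pumps ACA12 and ACA13, which export calcium from the cytosol, had log2 fold changes of 5.38 ± 0.51 and 3.03 ± 0.37. TCH3, a calmodulin-like protein, had 406, 501 and 186 CPM against 1222, 1854 and 1476 CPM, CML42 had 28.8, 45.1 and 11.96 against 106, 113 and 102 CPM, and the kinase CPK11 had 114, 113 and 76.8 against 182, 228 and 228 CPM. The Pep1 library was the lowest of number 1 in TCH3, CML42 and CPK11.

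Of 20 genes used as markers of pattern-triggered immunity, 6 were higher and none lower, against 3.68% and 1.72% of all genes, and the list's median log2 fold change was 1.27, against 0.03. FRK1, a receptor-like kinase induced by flg22, had 6.97, 10.2 and 9.21 CPM in number 1 and 26.7, 23.7 and 16.2 CPM in number 3, but 127, 128 and 106 CPM in number 2. PER4, a cell wall peroxidase, had 23.9, 78.6 and 16.7 CPM in number 1, 1264, 924 and 483 CPM in number 2 and 138, 349 and 221 CPM in number 3. In both genes number 3 was above number 1 and the highest levels were in number 2. The ubiquitin ligase PUB24 had 8.97, 23.5 and 4.57 CPM against 52.4, 127 and 76.6 CPM. NHL10, of the same list, did not pass, with 6.54, 34.5 and 4.05 CPM against 34.4, 87.4 and 57.95 CPM (adjusted p = 0.0614, edgeR).

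Of 27 listed WRKY factors of stress responses 24 were tested, of which 7 were higher and none lower. The shares over all genes were 3.68% and 1.72%, and the list's median log2 fold change was 1.02, against 0.03. WRKY45 had 2.005, 8.73 and 2.42 CPM in number 1 and 40.9, 184 and 107 CPM in number 3, WRKY41 1.79, 2.29 and 1.04 against 45.6, 21.3 and 33.5 CPM, and WRKY15 25.6, 20.6 and 18.16 against 207, 128 and 149 CPM. WRKY15 separated the numbers with the smallest adjusted p of the 7 (0.00104, edgeR). WRKY29 had 1.16, 0.208 and 0.457 CPM in number 1, 71.9, 76.3 and 57.7 CPM in number 2 and 6.61, 4.78 and 6.55 CPM in number 3. WRKY28, WRKY30 and WRKY26 had log2 fold changes of 4.52 ± 0.60, 3.39 ± 0.61 and 2.44 ± 0.43. WRKY33, a regulator of camalexin synthesis, did not pass, with 587, 973 and 263 CPM against 1266, 1547 and 1320 CPM (adjusted p = 0.0989, edgeR). Among the ERF, NAC and ZAT factors of stress responses 2 of 20 were higher, again against 3.68%. NAC042 had 0.9499, 1.04 and 11.8 CPM in number 1 and 227, 145 and 219 CPM in number 3, and ZAT6 had 2.64, 2.495 and 0.653 against 13.6, 16.2 and 11 CPM. Within number 1, NAC042 was highest in the Pep1 library.

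**Figure D4:**
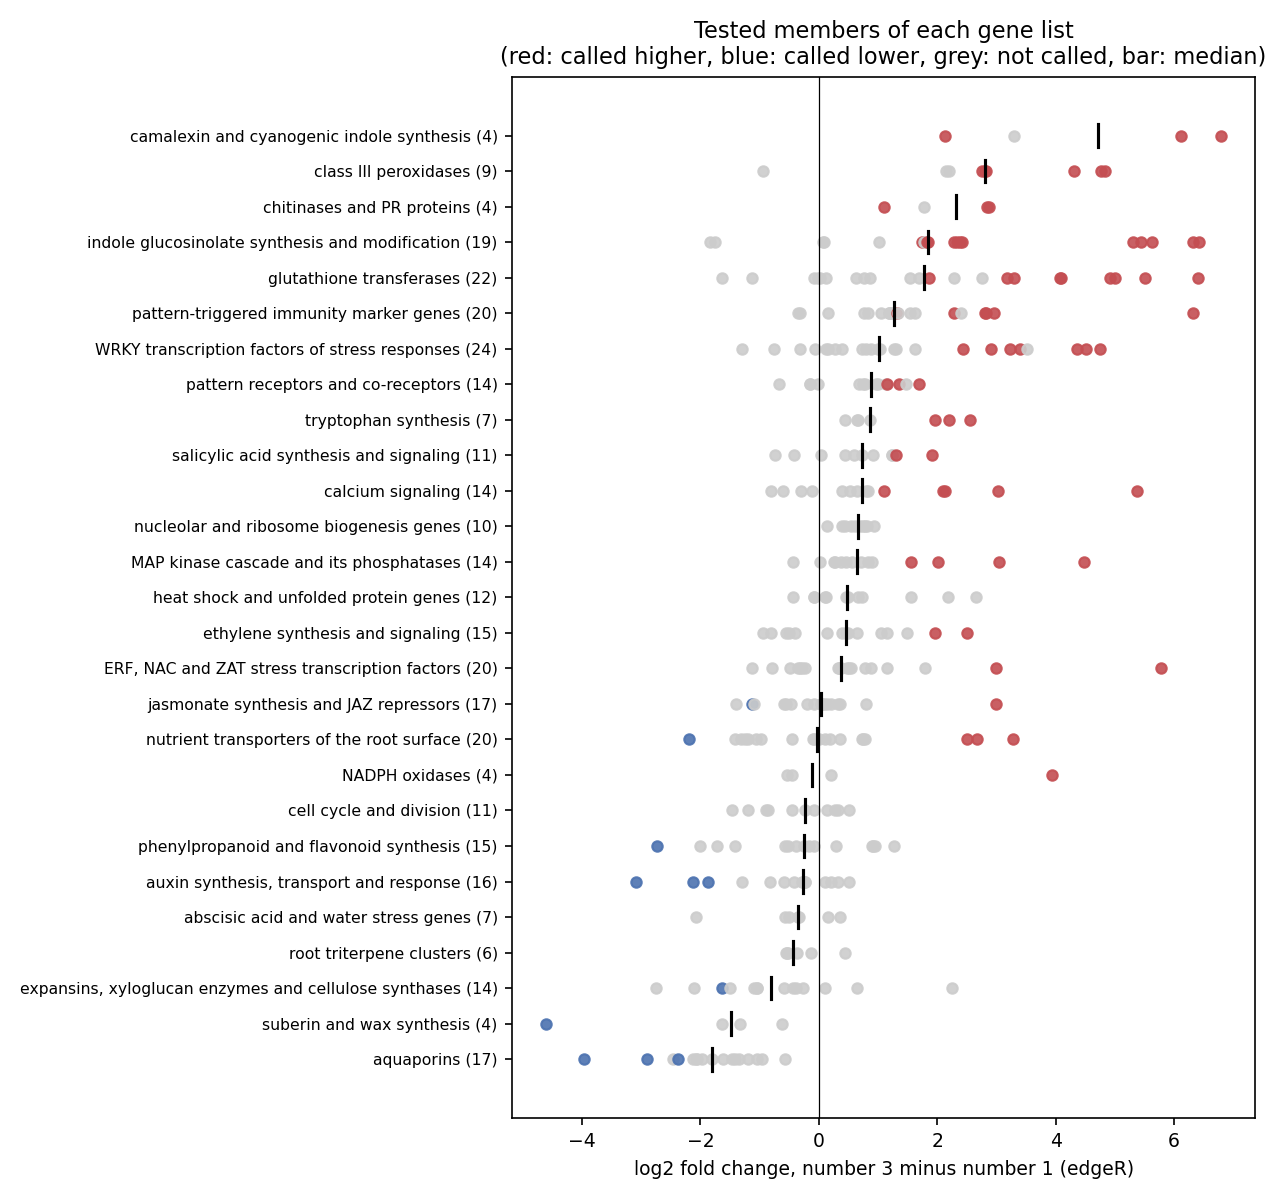
Log2 fold changes, number 3 minus number 1, of every tested member of 27 gene lists, ordered by their median (bar), with the number of tested members in brackets. Red points were called higher, blue points lower and grey points were not called. The highest members reach 6.79 in the camalexin and cyanogenic indole list, 6.43 in the indole glucosinolate list and 6.4 in the glutathione transferase list. The list of pattern-triggered immunity markers reaches 6.315, and all 17 aquaporins lie below 0.

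Indole glucosinolates are tryptophan-derived defense compounds that the myrosinase PEN2 and the transporter PEN3 bring into use at the cell surface. Of 19 tested genes of their synthesis and modification, 12 were higher and none lower, a share of 63.2% against 3.68% of all genes. CYP81F2, the cytochrome P450 that hydroxylates the indole ring, had 0.317, 0 and 1.83 CPM in number 1, 22.2, 12.4 and 16.8 CPM in number 2 and 87.5, 38.7 and 65.1 CPM in number 3. The log2 fold change was 6.32 ± 0.66 (adjusted p = 0.00237, edgeR), and the groups did not overlap. The methyltransferases that follow it, IGMT1 to IGMT4, are neighbours on chromosome 1 between 7386762 and 7400736 (TAIR10.1) and were all higher. IGMT1 had 0.9499, 0.416 and 0.196 CPM in number 1 and 23.1, 16.8 and 34.4 CPM in number 3. IGMT2 had 15.1, 14.8 and 67.3 against 1116, 1014 and 1249 CPM. IGMT3 had 0.739, 1.04 and 9.67 against 290.3, 274 and 305 CPM, and IGMT4 6.44, 3.74 and 20.3 against 362, 363 and 517 CPM. In IGMT2, IGMT3 and IGMT4 the Pep1 library was the highest of number 1, yet below every library of number 3. For IGMT2 and IGMT3, 75.8% and 74.1% of the 100-base stretches of the exons are unique in the genome, which may shift counts between these copies.

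IGMT5, which lies elsewhere on chromosome 1, did not pass the test and had 14.99, 5.41 and 10.8 CPM in number 1 and 4.86, 1.63 and 2.22 CPM in number 3. CYP81F4 of the same P450 family had 1.58, 1.87 and 1.699 against 0.5398, 0.712 and 0.247 CPM, also without a call. In the core pathway, CYP83B1 had 6.97, 15.4 and 21.3 CPM against 51.5, 56.1 and 118 CPM, SOT16 6.44, 8.32 and 11.5 against 29.8, 40.5 and 64.9 CPM, and SUR1 7.18, 13.5 and 10.2 against 24.7, 29.3 and 48.3 CPM. CYP79B2, which makes the first intermediate from tryptophan, had 0.211, 0.624 and 10.9 CPM in number 1 and 10.7, 4.78 and 6.796 CPM in number 3 (adjusted p = 0.376, edgeR), with the Pep1 library of number 1 above all 3 of number 3. The regulator MYB51 had 8.87, 17.3 and 5.55 against 47.5, 40.7 and 50.8 CPM. PEN2 had 532, 718 and 473 CPM against 2057, 1736 and 2238 CPM, and PEN3 2077, 3753 and 1116 against 10020, 12000 and 10810 CPM. In both genes every library of number 3 was above those of number 1. GSTF10, the glutathione transferase of the list, also rose, from 399, 643 and 533 to 1677, 2063 and 1865 CPM.

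Tryptophan feeds these compounds, and 3 of 7 genes of its synthesis were higher, against 3.68% of all genes. ASA1 and ASB1, the subunits of anthranilate synthase, had 32.4 ± 9.96 and 34.4 ± 12.5 CPM in number 1 and 125 ± 10.1 and 196 ± 15 CPM in number 3 (SD, n = 3). For ASB1, 74% of the 100-base stretches of the exons are unique in the genome, so that reads from the others may be missing or misplaced. TSB1, a beta subunit of tryptophan synthase, had 53.6, 48.03 and 65.7 CPM against 292, 222 and 257 CPM. The median log2 fold change of the 7 genes was 0.87, against 0.03 over all genes. Of 12 listed genes for camalexin and cyanogenic indoles only 4 passed the filter on low counts. Of these 3 were higher, AT1G26380 among them, against the same 3.68%. NIT4, a nitrilase that detoxifies beta-cyanoalanine, had 0.105, 0 and 0.261 CPM in number 1, 0.181, 0.763 and 0 CPM in number 2 and 16.9, 21.9 and 21.1 CPM in number 3. In NIT4 only the libraries numbered 3 had more than 4 counts, so that it passed the filter through these libraries alone. NIT4 is 1 of the 3 higher genes, so that its part in that share is a description. CYP71B6 had 14.7, 13.9 and 27.1 CPM against 79.5, 76.6 and 84.4 CPM. CYP71A12, a P450 of camalexin and cyanogenic indole synthesis, had 0.739, 1.66 and 50.6 CPM in number 1 and 69.6, 92.3 and 95.8 CPM in number 3 and did not pass (adjusted p = 0.176, edgeR). Its Pep1 library numbered 1 stood apart from the other libraries of that number.

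Of 23 listed glutathione transferases, which conjugate reactive compounds, 22 were tested. Of these 9 (40.9%) were higher and none lower, against 3.68% and 1.72% of all genes. GSTF6 had 13.8, 16.01 and 12.8 CPM in number 1 and 491, 469 and 408 CPM in number 3, and its neighbour GSTF7 2.85, 0.832 and 7.51 against 188, 141 and 179.5 CPM. GSTF2 and GSTF3 had 0.105, 0.208 and 0.588 and 1.27, 0.832 and 1.83 CPM in number 1, against 11.2, 11.4 and 10.5 and 25.6, 17.6 and 26.4 CPM in number 3. GSTU10 had 5.805, 10.6 and 5.75 CPM against 68.8, 61.96 and 61.04 CPM. In GSTU4 and GSTU9 the flg22 library was the highest of number 3, with 13.1, 65.7 and 26.1 and 4.45, 28.1 and 8.65 CPM, against 0.844, 7.28 and 0.523 and 1.48, 1.04 and 1.04 CPM in number 1. Of 18 listed class III peroxidases of the cell wall only 9 passed the filter on low counts, and 6 of these were higher, against 3.68% of all genes. The peroxidase PRXCB, called higher, had 6, 5 and 11 counts in number 1 and 6, 32 and 8 in number 2. It had 37, 62 and 39 counts in number 3 and passed the filter only with the libraries numbered 3, so that its call is a description. AT5G64120 (PRX71) had 16.1, 78.6 and 7.91 CPM in number 1 and 294, 1085 and 734 CPM in number 3, AT5G39580 had 39.8, 129.9 and 18.8 against 609.5, 1499 and 904 CPM, and AT1G14550 had 10.7, 29.9 and 8.17 against 68.8, 153 and 85.8 CPM. The flg22 library was the highest of its number in all 3 peroxidases, in number 1 as in number 3. In number 2 the mock library was above the flg22 library in AT5G39580 (1064 against 828 CPM) and AT1G14550 (508 against 378 CPM). In AT5G64120 these libraries lay close together (852 and 854 CPM). The highest levels of AT1G14550 were in number 2. Of 10 listed chitinases and PR proteins only 4 passed the filter, and 3 of these were higher, against the same share. The log2 fold changes were 2.88 ± 0.44 for the chitinase CHI, 2.85 ± 0.40 for the chitinase EP3 and 1.101 ± 0.26 for PR4.

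Further neighbours of named genes were also higher. UGT74E2, a glycosyltransferase beside AT1G05675, had 1.27, 4.57 and 2.35 CPM in number 1 and 45.1, 252 and 42.9 CPM in number 3, with the flg22 library far above the others. The purine permeases PUP7 and PUP8, beside WRKY28 on chromosome 4, had 0.317, 0.624 and 1.24 and 0.211, 0.624 and 0.131 CPM in number 1 and 29.02, 25.8 and 39.3 and 10.9, 4.58 and 6.05 CPM in number 3. All 3 genes were higher in number 3 with no overlap, against 3.68% of all genes higher and 24.6% not overlapping. They were named after their values were seen, among neighbours called in the same direction, so that this is a description. Neighbours without a call are not given.

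Jasmonate genes had 1 higher and 1 lower of 17, salicylic acid genes 2 higher of 11 and ethylene genes 2 higher of 15, against 3.68% higher and 1.72% lower over all genes. Their median log2 fold changes were 0.03, 0.73 and 0.46, against 0.03 over all genes. JAZ6, a repressor of jasmonate responses, had 1.900, 3.95 and 1.31 CPM against 9.18, 22.3 and 20.8 CPM, and AOC4, an allene oxide cyclase of jasmonate synthesis, 18.9, 16.2 and 21.7 against 9.45, 8.75 and 7.41 CPM. NPR1, a receptor of salicylic acid, had 109, 127 and 58.5 against 216, 259.6 and 228 CPM, and CBP60G, an activator of its synthesis, 40.9, 83.99 and 26.9 against 128, 252 and 155 CPM. In ethylene synthesis, ACS2 and ACO1 had 1.81 ± 0.815 and 2.15 ± 1.55 CPM in number 1 and 7.15 ± 2.26 and 12.3 ± 3.49 CPM in number 3 (SD, n = 3). Of 16 auxin genes none was higher and 3 were lower, against 3.68% and 1.72% of all genes, and all 3 were YUCCA flavin monooxygenases of auxin synthesis. YUC3 had 54.4, 53.6 and 28.1 CPM in number 1, 31.4, 29.6 and 26.9 CPM in number 2 and 6.34, 5.29 and 3.95 CPM in number 3, and a log2 fold change of -3.10 ± 0.26 (adjusted p = 0.00102, edgeR). YUC5 had 10.98, 8.11 and 12.2 CPM against 2.43, 1.93 and 2.72 CPM, and YUC9 35.7, 35.97 and 35.9 against 6.07, 14.7 and 9.02 CPM. In each of the 3 genes every library of number 3 was below those of number 1.

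Among the largest falls, CER4, a fatty acyl-CoA reductase that makes wax alcohols, had 138, 201 and 63.7 CPM in number 1, 26.8, 26.7 and 16.2 CPM in number 2 and 4.18, 3.87 and 6.92 CPM in number 3. The log2 fold change was -4.61 ± 0.48 (adjusted p = 0.00237, edgeR), and the 3 numbers did not overlap. AGP22, an arabinogalactan peptide of the cell wall, had 144, 167 and 53.2 CPM against 3.24, 19.2 and 7.29 CPM. GH9B17, a glycosyl hydrolase, had 23.8, 25.4 and 9.604 against 1.08, 0.6104 and 1.98 CPM, and AT1G75620, related to glyoxal oxidases, 17.6, 32.02 and 7.97 against 0, 1.02 and 0.989 CPM. GASA1, a gibberellin-regulated peptide, had 55.6, 22.04 and 9.02 CPM against 3.51, 0.407 and 1.85 CPM. In CER4, AGP22, GH9B17 and AT1G75620 the Pep1 library was the lowest of number 1. AT4G12510 and AT4G12520, neighbouring lipid-transfer family genes, had 77.05, 137 and 41.5 and 99.3, 163 and 51.8 CPM in number 1 and 1.62, 11.7 and 7.91 and 2.02, 18.5 and 11.9 CPM in number 3. In these 2 genes 51.6% and 44.5% of the 100-base stretches are unique, so that how the counts divide between them is uncertain. A further 5 of the 12 largest falls were AT2G27360 (a GDSL lipase), AT3G50810 (a CASP-like protein), AT2G17300, AT5G61570 (a protein kinase) and AT2G16980 (a major facilitator), with means of 15.6 to 27.6 CPM in number 1 and 1.13 to 2.19 CPM in number 3.

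Aquaporins, the water channels of the plasma membrane and the vacuole, were lower in 3 of 17 cases and higher in none, against 1.72% of all genes lower. All 17 had a negative log2 fold change, with a median of -1.81 and a range of -3.97 to -0.58. TIP2;2 of the vacuole had 158, 144 and 31.9 CPM in number 1, 8.86, 20.6 and 12.3 CPM in number 2 and 5.94, 3.87 and 9.27 CPM in number 3. TIP1;1 had 248, 350.3 and 72.5 CPM against 26.9, 39.5 and 52.4 CPM, and PIP2;2 of the plasma membrane 158, 192 and 37.5 against 7.02, 14.96 and 22.7 CPM. In each of these the Pep1 library of number 1 was lower than the mock and flg22 libraries of that number, and the Pep1 library of number 3 was the highest of its number. PIP1;1 did not pass, with 756, 1112 and 178 CPM against 67.3, 105 and 165 CPM (adjusted p = 0.0669, edgeR). Summed over the list, the aquaporins had 2930 to 12240 CPM in number 1, 3804 to 6130 CPM in number 2 and 1036 to 3289 CPM in number 3, so that numbers 1 and 3 overlapped.

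Expansins and related wall enzymes had 1 lower of 14, against 1.72% of all genes, which was EXPA14, with 99.95, 49.5 and 142 CPM in number 1 and 30.1, 28.1 and 30.4 CPM in number 3. XTH17, a xyloglucan enzyme, had 445, 892 and 246 CPM against 18.6, 128 and 74.8 CPM and an adjusted p of 0.054 in edgeR. The beta-expansin EXPB1, which was named after its values were seen, had 59.5, 109 and 33.97 CPM against 2.43, 13.7 and 5.81 CPM. Of 15 genes of phenylpropanoid and flavonoid synthesis 1 was lower, against 1.72% of all genes, the methyltransferase COMT1 of lignin synthesis, with 37.4, 44.7 and 10.8 CPM against 3.78, 2.54 and 6.67 CPM. Nutrient transporters went both ways, with 3 higher and 1 lower of 20, against 3.68% and 1.72% of all genes. STP13, a hexose importer, had 15.4, 29.5 and 11.3 CPM in number 1 and 145, 192 and 176 CPM in number 3, NRT1.8, a nitrate transporter, 95.7, 99.4 and 24.2 against 294, 409 and 472 CPM, and the ammonium transporter AMT2 5.805, 6.24 and 4.57 against 23.9, 40.3 and 42.9 CPM. The ammonium importer AMT1;3 had 35.04, 61.8 and 24.1 against 5.398, 11.4 and 9.27 CPM and fell. No member of the lists for heat shock (12 tested), abscisic acid and water stress (7), cell cycle (11), ribosome biogenesis (10) or root triterpenes (6) was called, which at 5.4% of all genes called is no result about lists of this size.

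Values of the libraries numbered 2 are set beside the others. Among the higher genes the median log2 fold change was 1.54 from number 1 to 2 and 0.66 from number 2 to 3, and among the lower genes -0.66 and -1.23. The genes were chosen by numbers 3 and 1, whose libraries these steps use again, and the steps share the libraries numbered 2, so that the values are a description. Over all genes, 285 were called between numbers 2 and 1 (1.78%) and 14 between numbers 3 and 2 (0.0875%). Between numbers 3 and 2, NIT4 and B120 were called higher in 3 and FRK1, WRKY29 and YUC3 lower. B120 had 4.88, 6.11 and 3.37 CPM in number 2. The 14 calls rest on single libraries: with 1 library left out edgeR called 0 to 42 genes, and 0 without mock 1, flg22 1, mock 2, Pep1 2, flg22 3 or Pep1 3, while DESeq2 called 504 on all 9 libraries.

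Markers of the labelled cell type were set beside those of the others. On the scale of the fit of all 27 libraries, GL2, whose promoter drove the GFP of the sort, had 77.9 to 335 CPM in the 9 epidermis libraries, against 0.879 to 9.07 CPM in the cortex and 0 to 38.3 CPM in the pericycle libraries. The sort used this promoter, so that GL2 is no independent marker here. Of other non-hair markers, WER had 39.15 to 134 CPM in the epidermis, against at most 33.6 and 26 CPM in cortex and pericycle. TTG2 had 48.3 to 87.6 CPM, against at most 6.81 and 9.135 CPM. GL3 overlapped, with 2.4 to 15.6, 0.293 to 9.73 and 0 to 3.24 CPM in epidermis, cortex and pericycle. PHO1 and HMA4, markers of the pericycle and of xylem loading, had at most 0.705 and 1.27 CPM in the epidermis, against at least 519.6 and 75.6 CPM in the pericycle. On the scale of the 9 epidermis libraries, GL2 had 234, 328 and 126 CPM in number 1 and 74.6, 119 and 109 CPM in number 3 (log2 fold change -1.17 ± 0.34, adjusted p = 0.0909, edgeR) and WER, the MYB factor that activates it, 124, 80.7 and 121 against 57.2, 35.6 and 59.8 CPM (adjusted p = 0.0694). None of the 8 non-hair markers was called, against 5.4% of all genes. Their summed level was 398 to 624 CPM in number 1 and 272 to 347 CPM in number 3, with no overlap. Of 14 root hair markers 5 passed the filter on low counts and none was called, against the same share, with sums of 96.4 to 358 CPM and 47.4 to 195.5 CPM. Root cap markers summed to 90.4 to 211 CPM and 79.8 to 93.9 CPM, and 1 of 4, FEZ, was lower in number 3, against 1.72% of all genes. Cortex markers summed to 3.01 to 4.43 CPM and 2.101 to 2.65 CPM, endodermis markers to 4.16 to 8.82 CPM and 1.83 to 7.66 CPM, and pericycle markers to 27.9 to 48.03 CPM and 19.4 to 32.2 CPM. Of the 3 tested pericycle markers 1, SKOR, had a positive log2 fold change (1.41 ± 0.445), without a call. Xylem and phloem markers summed to 6.99 to 17.1 CPM and 3.34 to 6.82 CPM, and green tissue markers to 2.08 to 6.02 CPM and 3.46 to 4.99 CPM. No marker list had a gene called higher in number 3, which at 3.68% of all genes called higher is no result about lists of this size. The cortex, endodermis, xylem and phloem, and green tissue lists had only 1 tested member each. The part of these shifts in the results above was not tested. In bulk samples fewer cells of a type and less RNA per cell cannot be told apart.

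The difference of number 3 against 1 was set beside that in the sorted cortex and pericycle, where 3 libraries of each number carry the same 3 labels. The paper describes separate experiments for each marker line, and the epidermis shares no library-name number with the other cell types. A number need not stand for the same experiment in each, so that cell type, marker line and experiment cannot be told apart here. Of the 589 genes higher in the epidermis, 571 of 589 with more than 3 counts had a positive log2 fold change in the cortex and 539 of 587 with more than 3 counts in the pericycle. Of the 275 lower genes, 251 of 273 with more than 3 counts were negative in the cortex and 231 of 268 with more than 3 counts in the pericycle. Over all genes 52.5% and 46.7% were positive. A test of the interaction of cell type and number over 27 libraries found 1 gene of 19127 (0.00523%), RBOHD, with an adjusted p of 0.000565 in edgeR. Its log2 fold change, number 3 minus 1, was 3.94 ± 0.30 in epidermis libraries, 1.13 ± 0.26 in those of cortex and 0.33 ± 0.26 in those of pericycle. On the scale of all 27 libraries its level was 3.64 to 75.3 CPM in the epidermis, 131 to 455 CPM among cortex and 397 to 926 CPM among pericycle libraries, so that the cell type with the lowest level had the largest difference. At an unadjusted p under 0.05 there were 1214 genes. With DESeq2 the interaction was called in 142 genes.

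**Figure D5:**
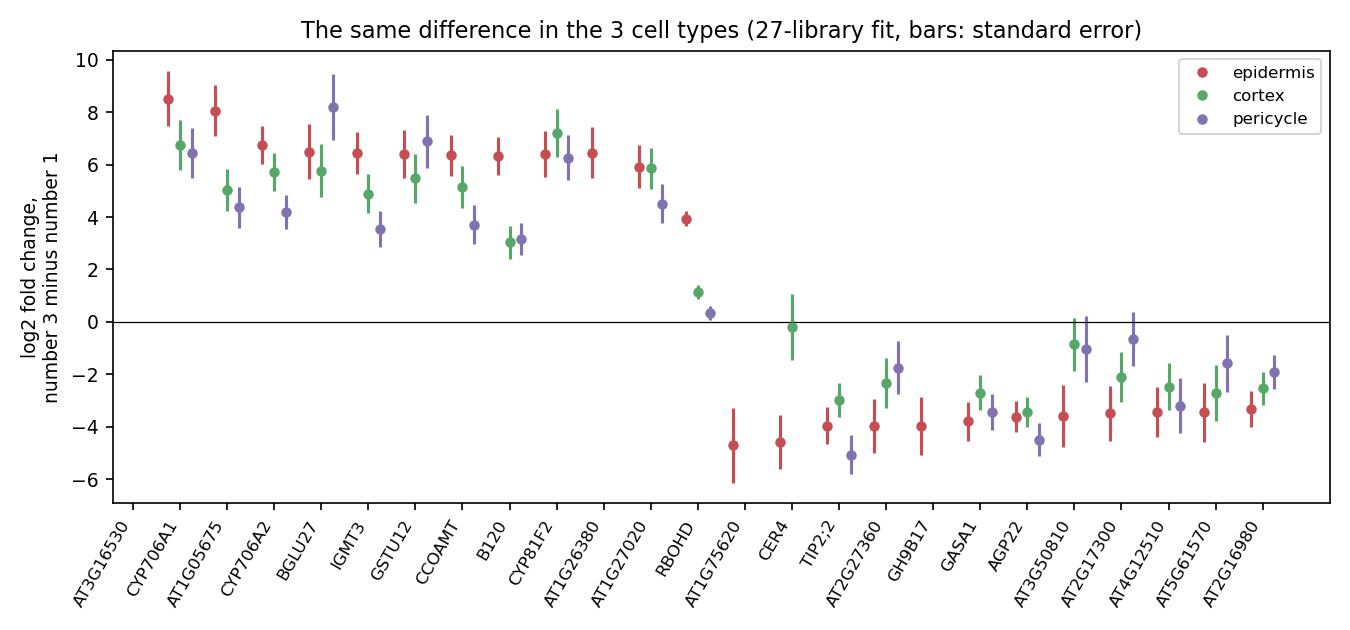
Log2 fold change, number 3 minus number 1, of the 12 largest rises, RBOHD and the 12 largest falls in epidermis, cortex and pericycle, from the fit of all 27 libraries (bars, standard error). Points are left out where a cell type had 3 counts or fewer in either number. RBOHD shows 3.94 in the epidermis against 1.13 and 0.33.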

How the data were processed

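RNA from FACS-sorted GFP-positive root protoplasts was amplified to cDNA and sequenced as paired reads. The authors deposited read counts per gene, not normalized. Their paper gives STAR alignment to TAIR10 and counting over exons with LiBiNorm without strand on the Araport annotation, while the submitters' processing notes name TopHat2 2.0.14 and HTSeq. Without strand, counts of overlapping and antisense genes cannot be told apart. Between 31.1 and 58.7% of reads in a library were not uniquely placed.

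Mitochondrial (152) and plastid (133) genes and the 5 unassigned rows were left out, as were 5 rRNA or overlapping genes and 375 ribosomal protein genes, which the study removed because of preferential amplification. edgeR 4.0.16 in R 4.3.3 was run on the 9 epidermis libraries with TMM scaling, a low-count filter (minimum count 10, minimum total 15), terms for replicate number and treatment label (4 residual degrees of freedom) and the quasi-likelihood test, with Benjamini-Hochberg adjustment over all genes tested and a threshold of 0.05. The fit was tested on simulated data for numbers 3 against 1 (15767 genes). In each direction it recovered 100% of the simulated 8-fold changes but only 6% of the 2-fold changes, with 4 false calls. The changes were placed only in genes with many counts, all genes shared a single spread, and no label or library-name difference was simulated. The real libraries differ in these respects, so that these values are not error rates of the reported calls. The 3 libraries of a number differ in treatment label, so that p-values measure the spread left after number and label. Depth limits precision mainly for genes with few counts.

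Named genes were the 12 largest rises and 12 largest falls among called genes whose log2 CPM averaged 2 or more and whose 3 label pairs moved the same way, per list the 3 tested genes of smallest unadjusted p, the marker genes GL2, WER, AED3, PHO1 and HMA4, RBOHD, and the other members of named families. Further list members were named after their values were seen. The comparison, the gene lists and the members were chosen with earlier results of these data known. Of 494 listed genes 369 were tested. Promoters and exon uniqueness were read from the RefSeq annotation of TAIR10.1. Alternatives were DESeq2 1.42.0, other scalings and filters, other samples and terms, thinning to 4307884 counts and leaving out each library.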

Additional observations from a re-analysis of the deposited data

Results flagged for a closer look

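RBOHD had a difference between numbers 3 and 1 that differed between the epidermis and the other cell types. It was picked out because the test of the difference itself, the interaction of cell type and number over all 27 libraries, gave an adjusted p of 0.000565 in edgeR, and it was the only gene of 19127 called. The log2 fold change was 3.94 ± 0.30 (SE) for epidermis, 1.13 ± 0.26 for cortex and 0.33 ± 0.26 for pericycle libraries. The gene with the next smallest adjusted p had 0.0601. The cause of the difference was not tested, and cell type, marker line and experiment cannot be told apart here.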

How the results depend on the processing

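No paired analysis was possible because a block on replicate number would remove the term compared. Libraries of the same treatment label were matched through the label term instead. Of the 864 genes called between numbers 3 and 1, none reversed in any alternative in which it was tested (850 to 864 of them). The direction of the calls between the other numbers was not followed. The 864 calls between numbers 3 and 1 became 1795 (1048 higher, 747 lower) with DESeq2, 478 (366 higher, 112 lower) in the fit of all 27 libraries and 366 (314 higher, 52 lower) with only the labels flg22 and Pep1. The lower calls, 275 in the report, were 457 without TMM scaling, 461 without the treatment label term and 174 with the library-name number as a further term. The share of higher genes among the calls was 58.5% without TMM, 78.2% with the library-name number and 85.8% within flg22 and Pep1. Leaving out 1 library gave 172 to 1137 calls, with 155 to 736 higher and 17 to 417 lower. Between numbers 2 and 1 the calls were 285 in the report, 668 with DESeq2, 167 in the fit of 27 libraries and 44 within flg22 and Pep1, and 20 to 422 with 1 library left out. Between numbers 3 and 2 they were 14 in the report, 9 without TMM, 123 without the filter, 65 without the label term, 0 with the library-name number, 0 within flg22 and Pep1, 504 with DESeq2, 0 in the fit of 27 libraries and 0 to 42 with 1 library left out. The interaction was called in 142 genes with DESeq2, in 2 with epidermis and pericycle only and in 1 or 2 with 1 epidermis library left out, a set of fits added after the data were seen. Of the genes that were not called, RHD2, number 3 against 1, (RBOHC) was at 0.0416 on the log2 scale with the library-name number as a further term and from -1.17 to 0.0467 with 1 library left out, while RBOH F, number 3 against 1, ranged from -0.24 to 0.67 with 1 left out, so that its sign turned. The cause of these shifts was not tested. Genes with few counts in number 1, such as AT3G16530, limit how well a fold can be given.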
